A study of Mus musculus with 12 samples.

Results

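Heme, the iron-holding ring of the cytochromes, is made in a chain of steps that starts and ends in the mitochondrion, and its iron enters most cells on transferrin. The genes described here are 8 that serve these steps: Alas1, Alad, Uros, Urod, Cpox, Ppox and Fech, which encode enzymes of heme synthesis, and Tfrc, which encodes the transferrin receptor. They were chosen by name from the 55401 genes counted in each library, and all 8 were among the 16540 genes with enough counts to be tested. RNA was from scWAT, which is subcutaneous fat, and the mice were females on a C57BL/6J background that were 16 weeks old at the start and, by the study's methods, of a single knock-in line. Jmjd1a +/+ mice, the wild type, were compared with Jmjd1a HY/HY mice, which carry in every cell a substitution that inactivates the demethylase JMJD1A. All mice were caged singly, spent 1 week at 30°C, and were then kept for 1 week at 30°C (thermoneutral) or at 8°C (cold exposed). Each of the 4 groups had 3 libraries, and the labels do not say whether a library held RNA of 1 mouse, so the p-values measure the spread between these libraries.

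ALAS1 joins glycine and succinyl-CoA in the mitochondrion, and this first step limits heme synthesis in most tissues outside the red cell lineage, where ALAS2 takes its place. The next steps are in the cytosol, where ALAD, UROS and UROD take part in building the ring, and CPOX, PPOX and FECH finish it in the mitochondrion, FECH by inserting iron. A thermogenic adipocyte is packed with mitochondria, whose respiratory chain holds heme in its cytochromes, and it gives off energy as heat through UCP1. In many cells the stability of Tfrc RNA depends on iron through elements that bind the iron regulatory proteins.

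The genes lie apart in the genome. In GRCm38 (mm10), RefSeq places Alas1 (ENSMUSG00000032786.16) at chr9:106233455-106247954, Alad (ENSMUSG00000028393.10) at chr4:62505984-62520063, Uros (ENSMUSG00000030979.13) at chr7:133686142-133710467, and Urod (ENSMUSG00000028684.14) at chr4:116989965-116994436. Cpox (ENSMUSG00000022742.6) lies at chr16:58670208-58680391, Ppox (ENSMUSG00000062729.11) at chr1:171276991-171281193, Fech (ENSMUSG00000024588.9) at chr18:64456542-64489098, and Tfrc (ENSMUSG00000022797.16) at chr16:32608896-32632794. Uros overlaps Bccip, a gene of the opposite strand, by 1135 bases at its start, and Ppox ends 95 bases from the end of B4galt3, also on the opposite strand. Reads were therefore counted by strand, and the sense strand was used.

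Sequence ahead of the RefSeq starts was available for 7 of the genes, in 11 windows of 250 bases each, and was searched on both strands for 4 short motifs. NRF1, a factor of nuclear genes for mitochondrial proteins, binds sites that hold GCATGCGC. These letters were present ahead of 1 of the 7 genes, Alas1, and in 2.26% of all 32851 windows. They read the same from either strand with an overlap, so that 2 matches span 10 bases, 195 to 186 bases before the second of the Alas1 starts. The 30 bases around them are shown with the matched letters in capitals.

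Alas1, chr9:106247906-106247935, minus strand, GRCm38: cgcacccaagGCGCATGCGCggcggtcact

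Neither AAGGTCA, the half-site of estrogen-related receptors, nor TGACGTCA, the cAMP response element, was present in any window of the 7 genes, against 4.08% and 1.55% of all windows. GGGCGG, the GC box, was present ahead of 5 of the 7 genes and in 32.7% of all windows. For Urod and Tfrc, the genes called higher in the cold below, and Ppox, whose level went the other way, the stretch up to the outermost RefSeq start is shown whole. These stretches hold none of the 4 motifs, since the GC box ahead of Urod runs over the edge of its stretch and the one of Tfrc lies ahead of a later start. A match or its lack is a description of letters only.

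Urod, chr4:116994437-116994663, minus strand, GRCm38: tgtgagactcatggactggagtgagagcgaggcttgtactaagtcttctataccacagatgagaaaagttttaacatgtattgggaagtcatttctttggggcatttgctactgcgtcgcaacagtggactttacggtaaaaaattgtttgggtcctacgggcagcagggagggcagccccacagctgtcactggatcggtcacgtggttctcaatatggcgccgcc

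Tfrc, chr16:32608646-32608895, plus strand, GRCm38: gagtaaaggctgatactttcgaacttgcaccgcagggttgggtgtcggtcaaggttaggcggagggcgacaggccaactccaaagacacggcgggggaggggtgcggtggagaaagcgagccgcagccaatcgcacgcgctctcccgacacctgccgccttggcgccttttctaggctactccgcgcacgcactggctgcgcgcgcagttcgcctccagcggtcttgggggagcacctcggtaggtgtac

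Ppox, chr1:171281194-171281436, minus strand, GRCm38: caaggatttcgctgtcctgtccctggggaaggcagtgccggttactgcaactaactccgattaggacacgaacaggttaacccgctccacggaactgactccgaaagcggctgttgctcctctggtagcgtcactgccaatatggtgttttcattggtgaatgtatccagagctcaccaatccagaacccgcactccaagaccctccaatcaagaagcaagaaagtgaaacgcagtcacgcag

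The libraries held 13592629 to 26352081 counts on genes. The 8°C libraries, at 13592629 to 17955584, were all shallower than the 30°C libraries, at 18305586 or more. Levels below are CPM, counts relative to a library size scaled with TMM. The 7 white adipocyte markers summed to 14360 to 41690 CPM over the 12 libraries. This shows adipocyte RNA in each library but does not check which fat depot was taken. Ucp1 was at 0.116 to 4.58 CPM at 30°C, at 5048 to 6055 CPM in cold wild-type mice and at 212 to 904 CPM in cold Jmjd1a HY/HY mice. Kdm3a, which encodes JMJD1A, had a mean of 39.9 to 49.3 CPM in the 4 groups and passed the test in none of the comparisons. Counts do not read the substitution, so this does not check the genotype labels. Skeletal muscle markers stood at 1129 CPM in wild-type replicate 2 at 30°C and at 3.05 to 21.6 CPM in the other 11 libraries. Without that library the cold comparison of wild-type mice still called 2 of the 8 genes, Urod and Tfrc. The share of all genes called without it is not given here, so this count cannot be weighed against it.

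Per kilobase of exon, Alad and Alas1 were the most abundant of the 8 in wild-type mice at 30°C, with means of 48.0 and 39.2 CPM per kb and overlapping libraries (41.2 to 61.2 against 29.7 to 53.8). Urod followed at 24.3 and Fech at 21.7 CPM per kb, again with overlapping libraries. Ppox was at 16.04, below every Fech library. Uros and Tfrc followed at 6.76 and 5.73 CPM per kb, with overlapping libraries, and Cpox was the lowest at 2.34. At 8°C the order of the levels in wild-type mice was Alas1 (59.8 CPM per kb), Alad (55.0), Urod (39.3), Fech (32.4), Tfrc (14.4), Ppox (11.5), Uros (8.80) and Cpox (2.26). The libraries of Alas1 and Alad overlapped there, while those of each later neighbour in the order did not. By these values Tfrc stood below Ppox in every wild-type library at 30°C and above it in every wild-type library at 8°C. The length used for a gene was the union of all its annotated exons. For Ppox this length exceeds the RefSeq span given above, so its levels per kilobase are too low. The place of Ppox in both orders and its crossing with Tfrc are therefore uncertain.

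**Figure D1:**
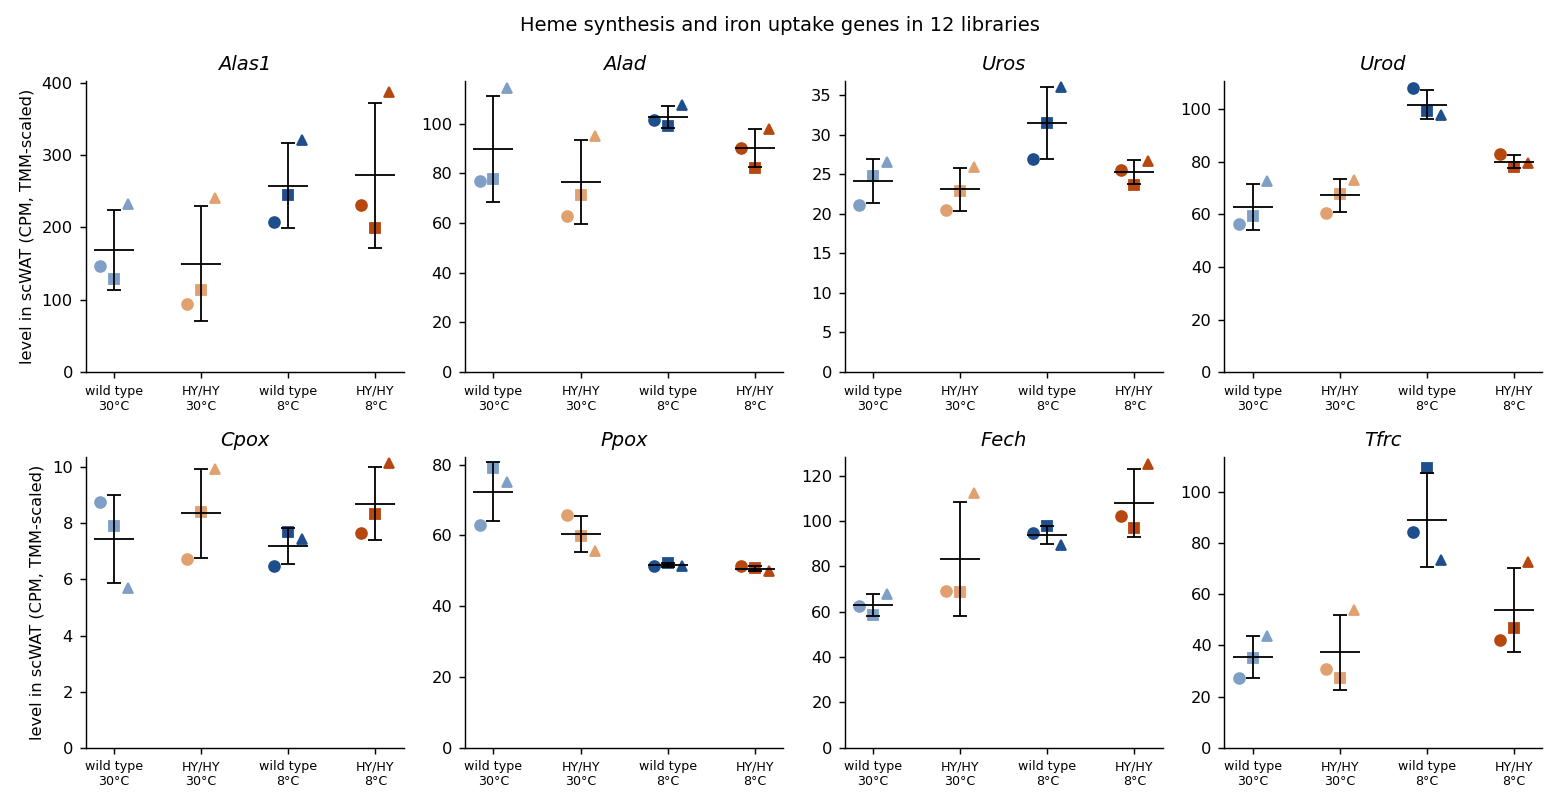
Level of each of the 8 genes (CPM, linear axis from 0) in the 12 libraries, by group. Circles, squares and triangles are replicates 1, 2 and 3, bars are the group mean and whiskers the SD (n = 3). Urod and Tfrc in cold wild-type mice lie above all wild-type libraries at 30°C, Ppox lies below them, and replicate 3 is the highest of its group for Alas1, Alad and Uros in all 4 groups.

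The first question was how cold exposure changed these genes in wild-type scWAT. Urod, the cytosolic decarboxylase, and Tfrc, the receptor that brings in iron, were higher at 8°C, whereas the level of Ppox was lower by a fold within the limit used. Calls needed a fold above 1.5 or below 0.67 besides an adjusted p under 0.05 from edgeR's quasi-likelihood test. By this rule 2 of the 8 genes were called higher and 0 lower, where 10.3% of all genes tested were called higher and 6.93% lower. By the adjusted p alone it was 3 higher (Urod, Tfrc and Fech) and 1 lower (Ppox), against 13.2% and 10.9% of all genes. The median log2 fold change of the 8 genes was 0.48, and that of all genes tested was -0.07. Overlap of libraries between groups is described gene by gene below, without its share over all genes.

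Tfrc had the largest change of the 8. Its levels in wild-type mice were 27.3, 35.1 and 43.8 CPM at 30°C and 84.5, 109.5 and 73.5 CPM at 8°C, so the groups did not overlap. The fold was 2.52 (log2 1.33 ± 0.29 SE, adjusted p = 0.00686). In a bulk sample a change in the share of cells that express a gene and a change in its RNA per cell cannot be told apart. Tfrc is also high in dividing cells, and all 6 markers of proliferating cells (Mki67, Top2a, Ccnb1, Cdk1, Birc5 and Ccna2) rose in the same comparison. Their summed level was 15.7 to 27.3 CPM at 30°C and 54.5 to 132.8 CPM at 8°C in wild-type mice. All 7 markers of thermogenic adipocytes rose as well, with a summed level of 76.5 to 201.3 CPM at 30°C and 8348 to 9266 CPM at 8°C. The part of dividing cells or of thermogenic adipocytes in the Tfrc result was not tested.

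Urod was measured at 56.5, 59.4 and 72.8 CPM at 30°C and at 108, 99.3 and 97.8 CPM at 8°C in wild-type mice. These groups did not overlap either, and the libraries at 8°C lay close together. The fold was 1.62 (log2 0.69 ± 0.11 SE, adjusted p = 0.00134), the smallest p of the 8. Both calls were kept with each of the 12 libraries left out in turn. With library totals in place of TMM, where the median of all genes moved from -0.07 to -0.41, Tfrc was still called (log2 1.00, adjusted p = 0.00662) but Urod, at log2 0.37 (adjusted p = 0.0176), was not. Relative to the median gene Urod was then at log2 0.77, against 0.76 with TMM.

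Fech, which closes the chain by inserting iron, was at 62.5, 58.6 and 68.0 CPM at 30°C and at 94.6, 97.7 and 89.6 CPM at 8°C. The groups were separate, the adjusted p was 0.0355 and the fold of 1.49 (log2 0.58 ± 0.18 SE) was just under the limit. It was called without wild-type replicate 3 at 30°C, at log2 0.64 (adjusted p = 0.0429). Over all 12 settings with 1 library left out its adjusted p ranged from 0.00301 to 0.111. Uros, the synthase that closes the ring, went from 21.2, 24.8 and 26.6 CPM to 27.0, 31.5 and 36.0 CPM. Its groups did not overlap, but its log2 fold change of 0.38 ± 0.13 SE had an adjusted p of 0.0587.

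Ppox, the oxidase before Fech, was the only one of the 8 with a lower level at an adjusted p under 0.05. It was at 63.1, 79.0 and 75.1 CPM at 30°C and at 51.5, 52.3 and 51.3 CPM at 8°C in wild-type mice, without overlap. The log2 fold change was -0.49 ± 0.10 SE (adjusted p = 0.00534), a fold of 0.714 that is inside the limit of 0.67. With library totals it was called lower, at log2 -0.83 (adjusted p = 0.00204), and relative to the median gene it was at -0.42 in both scalings. Reads on the strand opposite to Ppox came to 119 to 780 counts, or 15.6% to 26.3% of its strand-assigned counts, while for the other 7 genes no library had more than 8 such counts.

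Alas1, the gene of the first step, was at 147, 128 and 232 CPM at 30°C and at 207, 245 and 321 CPM at 8°C in wild-type mice. The groups overlapped, with the highest thermoneutral library above the lowest cold one, and the log2 fold change of 0.61 ± 0.37 SE had an adjusted p of 0.243. Although its fold of 1.52 was close to that of Urod, its SE was more than that of any other member. Alad went from 77.1, 77.8 and 114.5 CPM to 102, 99.2 and 108 CPM (log2 0.20 ± 0.18 SE, adjusted p = 0.444). Cpox was near its starting level, with 8.75, 7.90 and 5.69 CPM at 30°C and 6.46, 7.70 and 7.44 CPM at 8°C (log2 -0.05 ± 0.20 SE, adjusted p = 0.881). Cpox was also the least counted of the 8, with 87 to 244 counts per library.

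**Figure D2:**
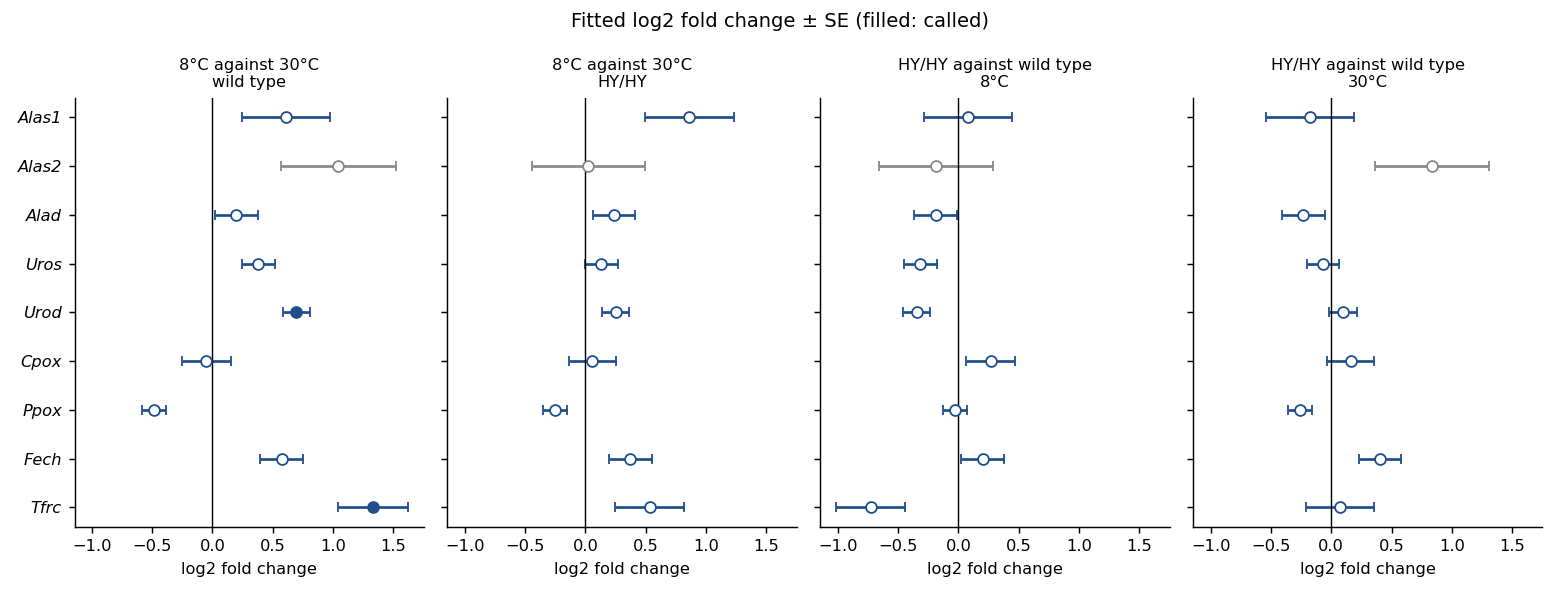
Fitted log2 fold change (x axis) of the 8 genes, in blue, and of Alas2, in grey, in 4 comparisons, with whiskers of 1 SE (n = 3 libraries per group). Filled points are called. Filled points are seen only for Urod and Tfrc, and only in the cold comparison of wild-type mice.

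In Jmjd1a HY/HY mice the same comparison called 0 of the 8 genes at an adjusted p under 0.05, and 3 had an unadjusted p under 0.05. Of all genes tested 0.248% were called in either direction there, and 2426 of the 16540 had an unadjusted p under 0.05. DESeq2 called 0 of the 8 as well. Tfrc was at 30.8, 27.1 and 53.9 CPM at 30°C and at 42.1, 46.8 and 72.8 CPM at 8°C, and these groups overlapped (log2 0.53 ± 0.29 SE, adjusted p = 0.415). Urod was at 60.7, 67.8 and 73.3 CPM and at 82.9, 78.0 and 79.5 CPM, without overlap (log2 0.25 ± 0.11 SE, adjusted p = 0.334). Ppox was at 65.8, 59.9 and 55.6 CPM and at 51.4, 50.7 and 49.9 CPM, also without overlap (log2 -0.26 ± 0.10 SE, adjusted p = 0.273).

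Alas1 had the largest log2 fold change of the 8 in Jmjd1a HY/HY mice. It went from 94.1, 114 and 241 CPM at 30°C to 231, 199 and 386 CPM at 8°C (log2 0.86 ± 0.37 SE, adjusted p = 0.313). In each temperature group replicate 3 stood far above the other libraries. Without replicate 3 at 30°C the log2 fold change was 1.39 and Alas1 was called (adjusted p = 0.0386), and so was Fech, at log2 0.65 (adjusted p = 0.0223). Fech in that library was at 112 CPM, beside 69.0 and 68.9 CPM in the other libraries of its group. With that library left in, Fech was at log2 0.37 ± 0.18 SE (adjusted p = 0.355), with 102, 96.9 and 125 CPM at 8°C. The log2 fold changes of Alad, Uros and Cpox were 0.24, 0.13 and 0.06, with adjusted p from 0.568 to 0.921.

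The second question was whether the genotypes differed at 8°C. None of the 8 genes was called, while of all genes tested 4.42% were called lower and 1.51% higher in Jmjd1a HY/HY mice. An unadjusted p under 0.05 in edgeR was found for 3 of the 8 and for 3700 of the 16540 genes tested. DESeq2 called 0 of the 8 too. Tfrc had the largest difference, with 42.1, 46.8 and 72.8 CPM in Jmjd1a HY/HY mice, all below the 73.5 CPM of the lowest wild-type library (log2 -0.73 ± 0.29 SE, adjusted p = 0.152). Urod, too, lay lower in every Jmjd1a HY/HY library than in any wild-type library, 82.9 CPM at most against 97.8 CPM at least (log2 -0.35 ± 0.11 SE, adjusted p = 0.0896). Over 20 other settings the adjusted p of Urod ran from 0.0251 to 0.245. Where it was under 0.05, the fold limit kept Urod from a call. Uros and Alad also had separate groups, at log2 -0.32 (adjusted p = 0.193) and -0.19 (adjusted p = 0.582). The share of all genes with separate groups is not given here, so the separation of these genes cannot be weighed against it. Alas1, Cpox, Ppox and Fech overlapped between the genotypes, with log2 differences from -0.03 to 0.27. All 6 proliferation markers were called lower in cold Jmjd1a HY/HY mice, with a summed level of 18.5 to 38.4 CPM. So were 6 of the 7 markers of thermogenic adipocytes, with a summed level of 533 to 1680 CPM.

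**Figure D3:**
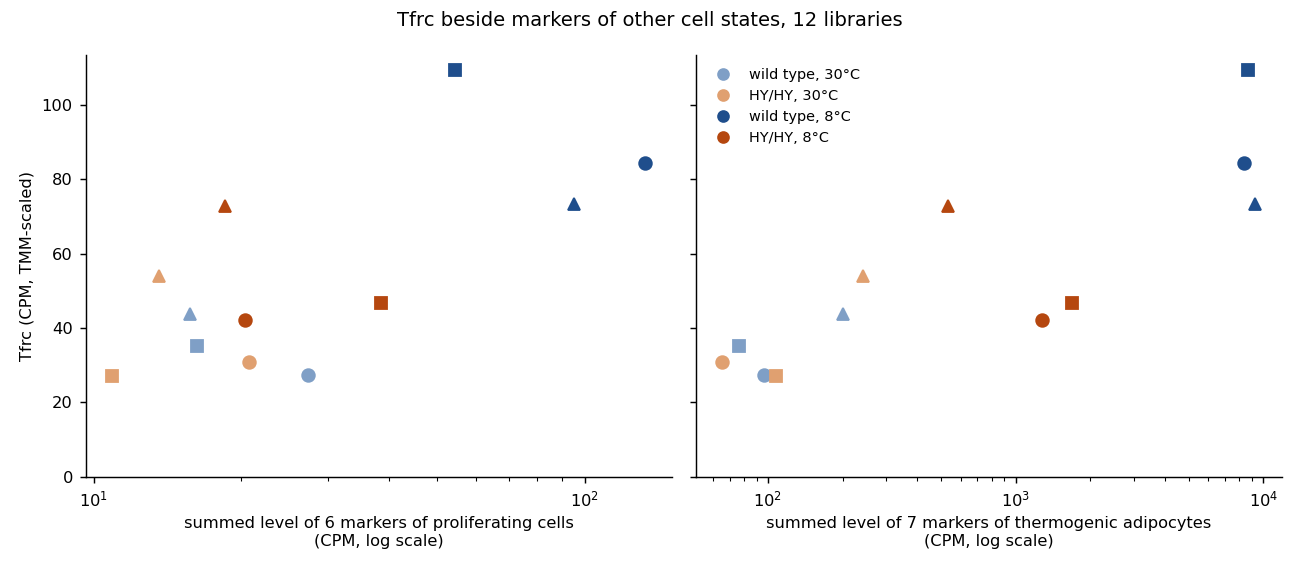
Tfrc level (CPM, linear axis from 0) in each of the 12 libraries beside the summed level of 6 markers of proliferating cells (left) and 7 markers of thermogenic adipocytes (right), both on log axes. Circles, squares and triangles are replicates 1, 2 and 3. The cold wild-type libraries are highest on both x axes.

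At 30°C none of the 8 genes was called between the genotypes, where 1% of all genes tested were called in either direction. An unadjusted p under 0.05 in edgeR was found for 2 (Ppox and Fech), and for 3083 of the 16540 genes tested. DESeq2 called 0 there too. Fech was higher in every Jmjd1a HY/HY library than in any wild-type library (log2 0.40 ± 0.18 SE, adjusted p = 0.249). Without Jmjd1a HY/HY replicate 3 at 30°C the Fech difference was log2 0.14 (adjusted p = 0.697 in edgeR). Ppox had a log2 difference of -0.26 ± 0.10 SE (adjusted p = 0.195). Tfrc and Urod were close, at log2 0.07 and 0.10. The interaction compares how far cold moved a gene in Jmjd1a HY/HY mice with how far it did so in the wild type. It passed an adjusted p of 0.05 for 0 of the 8 genes in edgeR and in DESeq2, and for 2.24% of all genes tested in edgeR. Only Urod of the 8 had an unadjusted p under 0.05, against 2481 of the 16540 genes tested. For Tfrc it was -0.80 ± 0.40 SE on the log2 scale (adjusted p = 0.389) and for Urod -0.44 ± 0.16 SE (adjusted p = 0.213, unadjusted p = 0.0171 in edgeR). The call in wild-type mice and its lack in Jmjd1a HY/HY mice are therefore not shown to differ.

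Alas2, the enzyme of the red cell lineage, was at 4.58 CPM per kb in wild-type mice at 30°C and 9.40 at 8°C, below Alas1 in both. Alas2 went from 10.3, 7.58 and 15.2 CPM to 21.6, 21.8 and 24.4 CPM in wild-type mice (log2 1.04 ± 0.48 SE, adjusted p = 0.129), without overlap. It was called when only the libraries of the comparison were fitted (log2 1.06, adjusted p = 0.0134) and without Jmjd1a HY/HY replicate 3 at 30°C, which shares the estimate of the spread (log2 1.05, adjusted p = 0.0223). That library held the highest Alas2 level, 37.8 CPM, and the highest summed level of 8 erythroid genes, 311 CPM, beside 141 and 111 CPM in the rest of its group. Nearly all of this sum was Hba-a1 and Hba-a2, near-identical copies, and the erythroid genes Klf1, Hemgn and Rhag had means of 0.198 CPM or less in every group. The erythroid genes held 0.0166% ± 0.0068 of counts in thermoneutral and 0.0227% ± 0.0034 in cold wild-type mice (SD, n = 3, exact permutation test, two-sided p = 0.3). The other comparisons of this share had p from 0.2 to 0.7 in the exact permutation test, which cannot go below 0.1 with 3 against 3. The part of red cells in the Alas2 values was not tested.

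Around the enzymes, 15 genes of cofactors and transporters were followed, of which 4 were called higher and 2 lower in cold wild-type mice (median log2 0.15). Tmem14c, which moves protoporphyrinogen in the mitochondrion, went from a mean of 86.0 ± 8.6 to 245 ± 18 CPM (SD, n = 3, log2 1.51 ± 0.12 SE, adjusted p = 2.33e-05 in edgeR). Clpx, a mitochondrial unfoldase known to activate ALAS, rose by log2 0.96. Slc25a39, a mitochondrial carrier, rose by log2 1.12. Flvcr2 and Fam210b fell by 1.16 and 0.86 on the log2 scale. In Jmjd1a HY/HY mice 0 of the 15 were called by cold in edgeR or DESeq2. An unadjusted p under 0.05 in edgeR was found for 4 of them, against 2426 of all 16540 genes. At 8°C Tmem14c and Slc25a39 were called lower in Jmjd1a HY/HY mice, by log2 -0.93 (adjusted p = 0.00198) and -0.77 (adjusted p = 0.0123). The Slc25a39 call was lost without wild-type replicate 3 at 8°C (adjusted p = 0.0597) or Jmjd1a HY/HY replicate 3 at 8°C (adjusted p = 0.0631).

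The genes that put heme to use are described next. All 3 genes of heme a and heme c assembly were called higher in cold wild-type mice: Cox10 (log2 1.77), Hccs (log2 1.19) and Cox15 (log2 0.72). Of 6 nuclear genes for heme-holding respiratory proteins and cytochromes b5, 5 were called higher, and the median of the 6 was log2 1.47. Cycs, cytochrome c, went from 158 ± 20 to 862 ± 61 CPM (SD, n = 3, log2 2.45 ± 0.19 SE), and Cyc1, cytochrome c1, from 192 ± 35 to 866 ± 38 CPM (log2 2.17 ± 0.20 SE). Sdhd and Sdhc, membrane anchors of complex II that share its heme, rose by log2 1.72 and 1.14. Cyb5a, the sixth, was at log2 -0.16 and was not called. At 8°C Cyc1, Sdhd and Cycs were called lower in Jmjd1a HY/HY mice, by log2 -1.27, -1.08 and -1.02, and so was Cox10, by log2 -0.85 (adjusted p = 0.0274). The Cox10 call was lost in 6 of the 12 settings with 1 library left out, with adjusted p up to 0.106. Cycs has near-identical copies in the genome, and reads that align to several places were not counted.

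**Figure D4:**
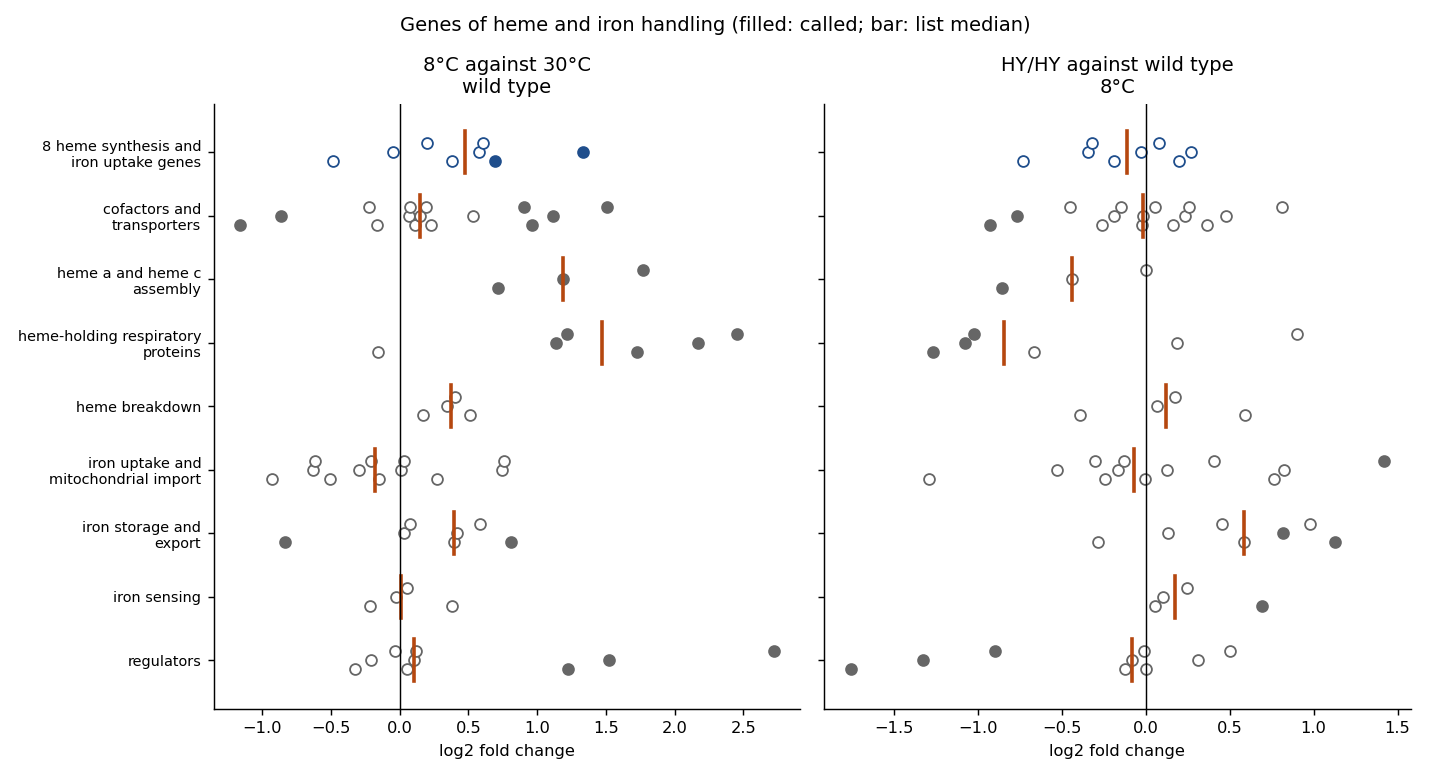
Log2 fold change (x axis) of the 8 genes, in blue, and of 8 lists of heme and iron genes, in grey, for cold against thermoneutral wild-type mice (left) and for the genotypes at 8°C, Jmjd1a HY/HY minus wild type (right). Each point is a gene, filled where called, and the bar is the median of its list. On the left the lists of heme assembly and heme-holding proteins have medians of 1.19 and 1.47, against 0.48 for the 8 genes.

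Tfrc was the only gene of iron entry called in cold wild-type mice in edgeR among those followed. Of 12 other genes of iron uptake and mitochondrial iron import, 0 were called in edgeR, with a median of log2 -0.18. An unadjusted p under 0.05 was found there for 5 of them, against 6351 of all 16540 genes. DESeq2 called Slc39a8, a metal importer, higher, and Tf, transferrin itself, and Steap2 lower, genes named after their values were seen. Of the mitochondrial iron importers mitoferrin 1 and 2, Slc25a37 was at log2 -0.30 ± 0.10 SE (adjusted p = 0.0423) and Slc25a28 at log2 -0.21 ± 0.12 SE (adjusted p = 0.229). With library totals, which lowered the median gene too, Slc25a37 was called lower, at log2 -0.63 (adjusted p = 0.0075). At 8°C Steap4, a ferrireductase, was higher in Jmjd1a HY/HY mice (log2 1.42 ± 0.37 SE, adjusted p = 0.0395), a call lost in 6 of the 12 settings with 1 library left out, with adjusted p up to 0.140. DESeq2 called Steap4, Steap3 (log2 0.81, adjusted p = 0.0186) and Tf (log2 0.75, adjusted p = 0.0158) higher there, while in edgeR Steap3 and Tf had adjusted p of 0.053 and 0.0755.

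Ferritin, the store of iron in the cell, has a heavy and a light chain. Fth1 went from 1255 ± 76 to 1879 ± 168 CPM in cold wild-type mice (SD, n = 3, log2 0.58 ± 0.17 SE, adjusted p = 0.0273), a fold of 1.497 that did not exceed the limit, and it was called in 5 of the 12 settings with 1 library left out. Ftl1 was at 883 ± 90 and 904 ± 75 CPM, with a log2 fold change of 0.03. Both have near-identical copies in the genome, so their levels are uncertain. Slc40a1, ferroportin, the iron exporter, was called higher at log2 0.81 ± 0.27 SE (adjusted p = 0.0455), although its groups overlapped, and the call was lost in 9 of the 12 settings with 1 library left out, with adjusted p up to 0.161. Heph, a ferroxidase, fell by 0.83 on the log2 scale (adjusted p = 0.000924). Between genotypes it was called higher in Jmjd1a HY/HY mice both at 8°C (log2 1.12) and at 30°C (log2 0.60).

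At 8°C Cp, the ferroxidase ceruloplasmin, and Fbxl5, an iron sensor that marks IRP2 for decay, were also higher in Jmjd1a HY/HY mice, by log2 0.82 (adjusted p = 0.0159) and 0.69 (adjusted p = 0.0054). The Fbxl5 call was lost without Jmjd1a HY/HY replicate 3 at 8°C (log2 0.55, adjusted p = 0.0216) and the Cp call in 5 of the 12 settings with 1 library left out (adjusted p up to 0.0742). Macrophages are rich in iron-handling genes, and 3 of 6 macrophage markers (Csf1r, Cd163 and Mrc1) were called higher in the same comparison. The markers summed to 218 to 298 CPM in the cold Jmjd1a HY/HY libraries and to 127 to 141 CPM in the cold wild-type ones. Their part in these differences was not tested. Of the 4 genes of heme breakdown 0 were called in the cold comparison of wild-type mice or between genotypes at 8°C, in edgeR or DESeq2. An unadjusted p under 0.05 in edgeR was found for 2 and 1 of them, against 6351 and 3700 of all 16540 genes. By the adjusted p alone Hmox2, a second heme oxygenase named after its values were seen, was higher in the first (log2 0.35 ± 0.11 SE, adjusted p = 0.0357) and lower in the second (log2 -0.39 ± 0.11 SE, adjusted p = 0.0491). Hmox1, heme oxygenase, was at 21.2 ± 2.0 and 30.2 ± 3.1 CPM in wild-type mice (SD, n = 3, log2 0.51 ± 0.30 SE, adjusted p = 0.225).

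Among 9 regulators known to act on heme genes, Ppargc1a, Ppargc1b and Esrra were called higher in cold wild-type mice, by log2 2.72, 1.52 and 1.22. Between the genotypes at 8°C the same 3 were called lower in Jmjd1a HY/HY mice, by log2 -1.32, -1.76 and -0.90. The Ppargc1a and Esrra calls at 8°C were lost in 4 and 6 of the 12 settings with 1 library left out, with adjusted p up to 0.148 and 0.105. The other 6, among them Nrf1, Bach1 and Nr1d1, were called in neither comparison. Nrf1 was at log2 -0.21 (adjusted p = 0.233) in cold wild-type mice.

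The genes nearest to Alas1 in profile, by the root mean square difference of centred log2 CPM over the 12 libraries, were Ccbl2 (0.183), Fmo1 (0.190) and Asns (0.233), where the median over all genes was 0.662. For Tfrc they were Atp5l-ps1 (0.173), Bckdha (0.195) and Coq9 (0.207), with a median of 0.712. For the mean of the 8 genes they were 2410091C18Rik (0.061), Gcdh (0.063) and Atp6v1e1 (0.070). Among the 8 genes themselves Alad and Uros were the closest pair (0.149), followed by Uros and Urod (0.179).

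Within groups the genes also varied. Alas1, Alad and Uros were each highest in replicate 3 of all 4 groups, as were 1113 of the genes tested (6.73%). The summed level of the white adipocyte markers was highest in replicate 3 of all 4 groups as well. At 30°C it was 26610 CPM there against 15900 and 16430 CPM in the other wild-type libraries, and 39080 CPM against 21870 and 14360 CPM in the other Jmjd1a HY/HY libraries. The cold libraries had 30980 CPM against 23610 and 28530 CPM for the wild type, and 41690 CPM against 32610 and 28910 CPM for Jmjd1a HY/HY mice. Fabp4 held much of these sums, with 22920 of the 30980 CPM in wild-type replicate 3 at 8°C. Adipoq, Plin1, Fabp4, Lipe and Cidec were each highest in replicate 3 of all 4 groups. Lep and Retn were not. Lep was highest in wild-type replicate 1 at 30°C (352 CPM, against 294 CPM in replicate 3). Retn was lowest in wild-type replicate 3 at 8°C (1064 CPM). The part of adipocyte content in the levels of Alas1 was not tested.

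**Figure D5:**
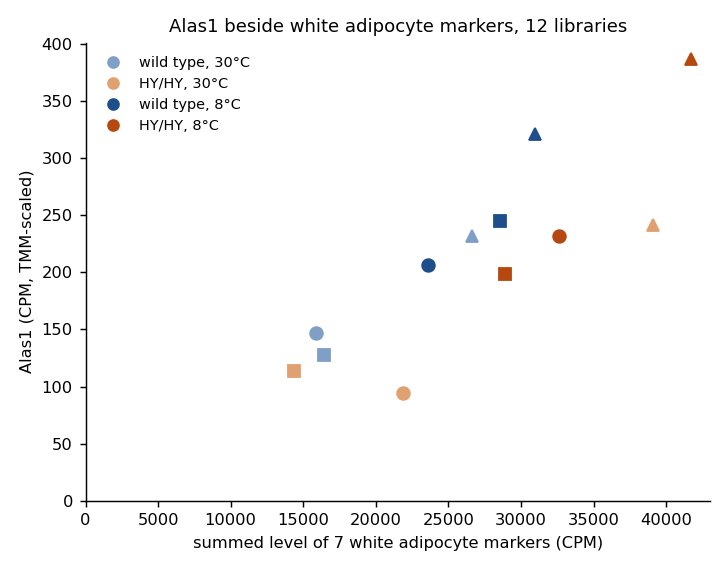
Alas1 level against the summed level of 7 white adipocyte markers (both CPM, linear axes from 0) in each of the 12 libraries. Circles, squares and triangles are replicates 1, 2 and 3. Replicate 3 of each group is highest on both axes within its group, with 386 CPM of Alas1 and 41690 CPM of markers in Jmjd1a HY/HY mice at 8°C.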

How the data were processed

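Libraries from total RNA of scWAT were made with a TruSeq kit. After trimming with fastp and alignment to mm10 with STAR, the authors deposited raw counts of read pairs per gene (GENCODE M25), for both strands and for each. Versions are not given in the sources used here. The sense counts, 95.5% to 96.2% of strand-assigned counts, were used, without the 4 entries that name no gene (55.8% to 63.5% of read pairs).

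In R 4.3.3, edgeR 4.0.16 fitted its quasi-likelihood model with 1 mean per group to all 12 libraries, after filterByExpr and TMM. Tests were two-sided, with p-values adjusted by Benjamini and Hochberg over 16540 genes, and were checked on simulated data. The SE is the size of the log2 fold change over the square root of F. Profiles used log2 CPM with a prior count of 2. Exon lengths were the union of all annotated exons in earlier GENCODE models and can differ from M25. Promoter windows were RefSeq's (GRCm38.p6).

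The members and lists were chosen with earlier results of these data known. Named were the 8 members, Alas2, Hmox1, Fth1, Ftl1, Slc40a1, Slc25a37, Slc25a28, Kdm3a, Ucp1, up to 4 genes per list called in cold wild-type mice or between genotypes at 8°C in order of p, marker lists and nearest profiles. Flvcr2, Fam210b, Cyb5a, Cyb5b, Nrf1, Bach1 and Nr1d1 were named after their values were seen. Some genes that this rule names are not reported here. Alternatives were library totals, no mitochondrial DNA genes, DESeq2 1.42.0, other filters and limits, fewer libraries, both strands and a replicate block. Same-numbered libraries did not pair by the rule of r over 0.1 in every pair (11 of 18).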

Additional observations from a re-analysis of the deposited data

Results flagged for a closer look

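The cold responses of the genotypes differed, by the interaction term of edgeR, for 8 genes of the heme and iron lists and for none of the 8 members. Of 15 cofactors and transporters 1 was positive and 2 were negative. Negative were also 1 of 3 assembly genes, 3 of 6 heme-holding genes and 1 of 9 regulators. The lists of other enzymes, heme breakdown, iron uptake, iron storage and iron sensing held 0. The share over all genes tested was 2.24%. As the lists were chosen with earlier results of these data known, their counts cannot be weighed against it. Marker lists were not counted here. The difference (Jmjd1a HY/HY minus wild type, log2) was -1.73 for Cyc1 (adjusted p = 0.0132) and -1.72 for Cycs (adjusted p = 0.0113), and both calls were kept with each of the 12 libraries left out in turn. It was -1.05 for Tmem14c (adjusted p = 0.0135) and 1.80 for Flvcr2 (adjusted p = 0.0218), both lost in 4 of the 12 settings, with adjusted p up to 0.0525 and 0.0695. It was -0.63 for Clpx (adjusted p = 0.0437, lost in 11 of the 12), -1.29 for Cox10 (0.0428, lost in 10), -1.32 for Sdhd (0.0287, lost in 9) and -2.19 for Ppargc1a (0.039, lost in 9), with adjusted p up to 0.124, 0.122, 0.0870 and 0.116. Flvcr2 went from 4.18 ± 0.85 to 1.87 ± 0.28 CPM by cold in wild-type mice and from 2.10 ± 0.12 to 3.31 ± 0.76 CPM in Jmjd1a HY/HY mice (SD, n = 3).

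Counts on the strand opposite to Ppox, which enter the comparisons of the genes only in the setting with both strands, reached 780 in 1 library. They were called lower in 1 of the 5 comparisons when fitted by themselves, namely by cold in wild-type mice.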

How the results depend on the processing

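The cold comparison of wild-type mice called 2 of the 8 genes, 4 by the adjusted p alone (Urod, Tfrc and Fech higher, Ppox lower), 4 with the replicate block (Urod, Tfrc, Fech at log2 0.59 and Alas1 at log2 0.64, adjusted p = 0.0153), 3 with DESeq2 or only the libraries compared, and 2 to 3 with 1 library left out. In Jmjd1a HY/HY mice the replicate block called 1, Alas1 (log2 0.92, adjusted p = 0.0336), and 0 to 2 were called with 1 library left out. The block also called Alas2 by cold in wild-type mice (log2 1.13, adjusted p = 0.0217). Replicate numbers share no stated origin, and 7 of 12 libraries were nearest to one of their own number. The share of all genes called in each setting is not given beside these counts of members, so the counts cannot be compared between settings. The genotype and interaction comparisons called 0 of the 8 in every setting. The adjusted p of Urod between genotypes at 8°C was as low as 0.0251 among them, at a fold inside the limit. With library totals the sign turned for Alad by cold in wild-type mice (-0.13), Ftl1 there (-0.30), Cpox by cold in Jmjd1a HY/HY mice (-0.062), Ppox (0.11) and Slc25a28 (0.13) between genotypes at 8°C, Tfrc between them at 30°C (-0.028) and the Fech interaction (0.024), and for Slc25a28 at 8°C also with only the libraries compared (0.007). With 1 library left out, values crossed 0 for Alas1 between genotypes at 8°C (-0.26 to 0.27), at 30°C (-0.69 to 0.12) and in the interaction (-0.094 to 0.77), the interactions of Alad (-0.17 to 0.22), Cpox (-0.025 to 0.27) and Fech (-0.33 to 0.068), Cpox by cold in wild-type (-0.21 to 0.081) and Jmjd1a HY/HY mice (-0.075 to 0.20), Uros (-0.15 to 0.013) and Tfrc (-0.28 to 0.26) at 30°C, Alas2 (-0.41 to 0.099), Slc40a1 (-0.099 to 0.32) and Slc25a28 (-0.059 to 0.041) at 8°C, and Ftl1 by cold in wild-type mice (-0.027 to 0.12). Over 1824 recomputed values of single genes, 1667 kept direction and side of the threshold, 96 lost it, 24 gained it and 37 changed sign. Apart from these settings the cause was not tested. With 3 libraries per group, differences under the SEs given were not detectable. Differences larger than their SE also went without a call, such as those of Tfrc and Urod between genotypes at 8°C (adjusted p = 0.152 and 0.0896 in edgeR).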

Other observations

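Of 7 mammary epithelium markers, 3 (Epcam, Cldn3 and Elf5) were called lower in cold than in thermoneutral wild-type mice, and the 7 summed to 2078 to 3800 CPM at 30°C and 1351 to 1511 CPM at 8°C. The lymphocyte markers, which summed to 2.92 to 18.2 CPM in all 12 libraries, were called in neither the cold comparison of wild-type mice nor the genotype comparison at 8°C. Of the white adipocyte markers, Lep, the hormone leptin, fell by 1.38 on the log2 scale in cold wild-type mice, and Lep and Retn were called higher at 8°C in Jmjd1a HY/HY mice than in the wild type (log2 1.99 and 0.80).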
